A study of Mus musculus with 2 samples.

Results

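The genes examined here are those of the NF-κB pathway, its activators and its inhibitors. A list of 42 genes was set, and a gene entered the comparison where the platform annotation assigned at least 1 probe set to it and to no other gene. This held for 35 of the 42 genes, with 86 probe sets, of 18193 genes in all. No such probe set was found for Nfkb1, Chuk, Ripk1, Ripk2, Irak4, Traf3 and Tnip3, whose expression is not analysed here. The genes were placed in 3 classes by their known roles, namely 24 kinases and adaptors (19 with a probe set), 5 Rel subunits (4 with a probe set) and 12 inhibitors (11 with a probe set), and Tnfaip2 was kept apart. The class of inhibitors includes Nfkbiz and Bcl3, whose products can activate as well as repress.

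The membranes came from female Balb/C mice of 6 to 8 weeks, in which an air pouch, a cavity under the skin whose lining stands in for synovium, had been raised. On day 7 by the sample records, a day later than in the study's methods, control pouches received 1 ml PBS and MSU pouches 2 mg monosodium urate (MSU) crystals in 1 ml PBS. Both were harvested 9 h later. Free leukocytes were washed out before dissection, RNA of 3 membranes per group was pooled, and each pool was hybridized to 1 array, so there were no replicates and no test between the groups was possible. All values below describe these 2 pools.

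NF-κB is a family of dimeric transcription factors that IκB proteins hold in the cytoplasm. Signals from Toll-like, interleukin-1 and TNF receptors pass through adaptors, kinases and ubiquitin ligases (among them IRAK, TRAF, cIAP and RIP proteins) to the kinase TAK1 and the IKK complex, which marks IκB for destruction and frees the dimers. Among the genes that the freed dimers switch on are several of their own inhibitors, such as IκBα and A20, so that the response limits itself. In gout the pathway lies between the contact of resident cells with crystals and the output of cytokines.

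Every one of the 35 genes was measured, and 15 of them had at least 2-fold higher signal in the MSU pool, while none was lower by as much. Among all 11155 genes measured in the same way, 3.7% were higher by this size (413 genes) and 4.29% lower (478 genes), which scaling on the hybridization spike-ins turned into 200 and 1789. The 15 genes were Malt1, Tnfaip3, Traf1, Nfkbiz, Nfkbie, Birc3, Irak3, Ikbke, Map3k8, Tnip1, Bcl3, Nfkbia, Tnfaip2, Nfkb2 and Irak2. They made up 7 of 11 inhibitors, 6 of 19 kinases and adaptors, 1 of 4 subunits and Tnfaip2. A gene counts as measured here where the signal reached the detection floor on at least 1 array (64.6 for the control and 74.1 for the MSU array). Where it did so on both arrays, the ratio of MSU over control is given as a fold. Where it did so on 1 array alone, the ratio is given as "at least" a fold against the other array's floor. Traf1 and Rel were in this second case, since their control signals lay below the floor.

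The median log2 ratio was 1.33 over the 11 inhibitors, 0.98 over the 3 subunits with a fold and 0.49 over the 18 kinases and adaptors with a fold, compared with -0.05 over all 10045 genes with a fold. Subunits and inhibitors together (14 genes) had a median of 1.20, which exceeded that of the kinases and adaptors by 0.71 on the log2 scale, or 1.63-fold. The classes overlapped, with log2 ratios from 0.14 to 2.61 among inhibitors, from 0.35 to 1.08 among subunits and from 0.03 to 2.63 among kinases and adaptors. On the representative probe sets all 33 folds lay above a log2 ratio of 0. Counted over every probe set of these genes, 8 of 65 folds lay below it. The representative is the brightest over both arrays, so the MSU signal has a part in its choice. Scaling on the hybridization spike-ins, all 18 of which were brighter on the MSU array, put 12 of the 33 below 0. These were Rela, Tnip2, Cyld, Otud7b, Traf2, Ikbkb, Ikbkg, Map3k7, Map3k14, Tab2, Tab3 and Irak1. That scaling lowers each log2 ratio by 0.46, the median of all genes included, and so does not alter the difference between classes. With Rel and Traf1 entered at their bounds, the medians were 0.70 for the subunits and 0.51 for the kinases and adaptors, and the difference was 0.57. Where a gene had several probe sets, their log2 ratios differed by a pooled SD of 0.33 (4002 genes), which holds no variation between mice, pools or arrays.

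**Figure D1:**
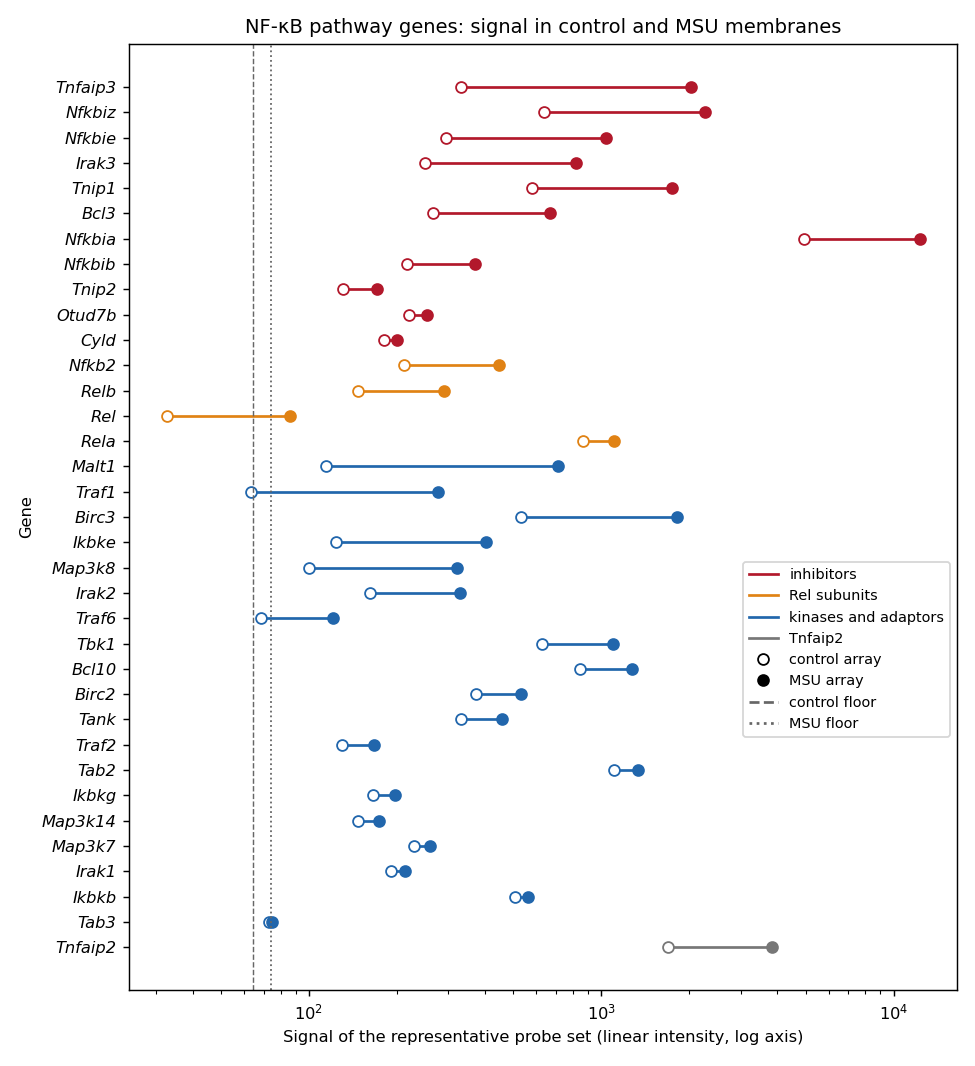
Signal of the representative probe set of each of 35 genes (x axis, linear intensity on a log axis) on the control array (open circles) and the MSU array (filled circles), 1 array per pool, by class, with the detection floors of 64.6 and 74.1 as vertical lines. With the deposited scaling every filled circle lies right of its open circle (12 would not under spike-in scaling), and the widest gaps are those of Malt1 and Tnfaip3; levels of different genes cannot be compared, since each has its own probes.

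**Figure D2:**
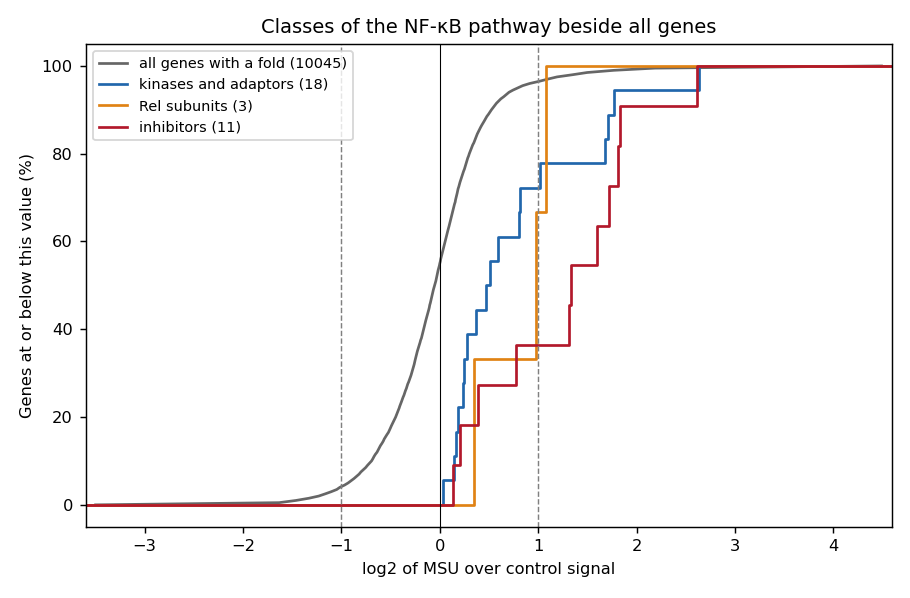
Share of genes (y axis, percent) at or below each log2 ratio of MSU over control (x axis), for all 10045 genes with a fold and for the 3 classes, with dashed lines at 2-fold. The listed inhibitors (median 1.33) lie furthest to the right, and the curve of the kinases and adaptors (median 0.49) has a long upper part that reaches 2.63. Inhibitors outside the list, not drawn here, had a median of 0.01.

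Dimers of the family bind the κB motif, a stretch of 10 bases that starts with a run of G, goes on with a purine, any base, an A or T and pyrimidines, and ends in C. This motif was searched on both strands in the 300 bases around each transcription start listed by RefSeq (GRCm38.p6, a C57BL/6J reference), 250 before it and 50 after it. Of the 34 listed genes with such a promoter, 13 held at least 1 match, compared with 5.14% of 27025 genes (4.51% of 32851 promoters). By class, matches were found for 7 of 10 inhibitors, 2 of 3 subunits and 4 of 20 kinases and adaptors. These counts include genes without a probe set (Chuk, Ripk1, Irak4, Traf3 and Tnip3), so they cover other genes than the class medians do. The last 150 bases before the start furthest upstream (base -150 to -1) are given for 4 inhibitors and both subunits that held a match there, and for Map3k7 as a gene with a match and a fold near 1. Capitals mark the matches, which can overlap or read the same on both strands.
Nfkbia, chr12:55492648-55492797, minus strand: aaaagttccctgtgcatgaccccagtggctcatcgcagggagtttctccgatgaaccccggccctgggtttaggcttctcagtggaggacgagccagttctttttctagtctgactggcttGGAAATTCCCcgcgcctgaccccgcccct
Nfkbie, chr17:45555550-45555699, plus strand: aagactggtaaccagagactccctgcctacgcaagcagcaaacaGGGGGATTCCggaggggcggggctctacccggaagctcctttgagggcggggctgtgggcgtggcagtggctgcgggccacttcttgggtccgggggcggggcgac
Tnfaip3, chr10:19015411-19015560, minus strand: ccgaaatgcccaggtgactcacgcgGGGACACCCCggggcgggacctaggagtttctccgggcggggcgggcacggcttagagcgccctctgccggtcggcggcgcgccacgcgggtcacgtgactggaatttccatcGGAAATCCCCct
Tnip1, chr11:54962941-54963090, minus strand: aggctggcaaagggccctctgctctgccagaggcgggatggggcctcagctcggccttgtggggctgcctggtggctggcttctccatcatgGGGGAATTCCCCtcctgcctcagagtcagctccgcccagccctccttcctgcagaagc
Nfkb2, chr19:46304587-46304736, plus strand: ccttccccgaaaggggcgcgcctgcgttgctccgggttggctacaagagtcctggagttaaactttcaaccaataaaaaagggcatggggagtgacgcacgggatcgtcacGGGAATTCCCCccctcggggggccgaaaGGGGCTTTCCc
Rel, chr11:23770970-23771119, minus strand: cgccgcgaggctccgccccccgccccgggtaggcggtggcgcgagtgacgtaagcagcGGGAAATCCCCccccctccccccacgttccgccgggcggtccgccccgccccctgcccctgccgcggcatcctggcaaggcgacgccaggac
Map3k7, chr4:31963957-31964106, plus strand: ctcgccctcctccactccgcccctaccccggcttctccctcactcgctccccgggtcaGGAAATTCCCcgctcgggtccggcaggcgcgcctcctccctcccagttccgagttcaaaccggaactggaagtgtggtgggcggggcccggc

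In Nfkbia the match started 29 bases before the transcription start, in Tnip1 4 overlapping matches started between base -58 and base -56, and in Nfkb2 2 blocks lay within the last 39 bases. The match of Nfkbie started at base -106, and those of Tnfaip3 at -125 and -12. Matches outside the stretches shown were those of Bcl3 (from base 3 after the start), Cyld (-155), Bcl10 (-241), further starts of Nfkb2, and the more downstream starts of Tank. Tnip3 and Traf3, which had no probe set, also held a match. Of the 12 genes with a promoter that were at least 2-fold higher, 6 held a match, as did 5 of the 17 measured genes under 2-fold. Traf1, Birc3, Irak3, Ikbke, Irak2 and Tnfaip2 had none in this window, whereas Map3k7 and Cyld, with log2 ratios of 0.18 and 0.14, had 1 each. Nfkbiz, Ikbkb, Ripk2, Malt1, Otud7b, Map3k8, Relb and Nfkb1 were not searched. A match describes these letters alone and does not show that a factor binds there.

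**Figure D3:**
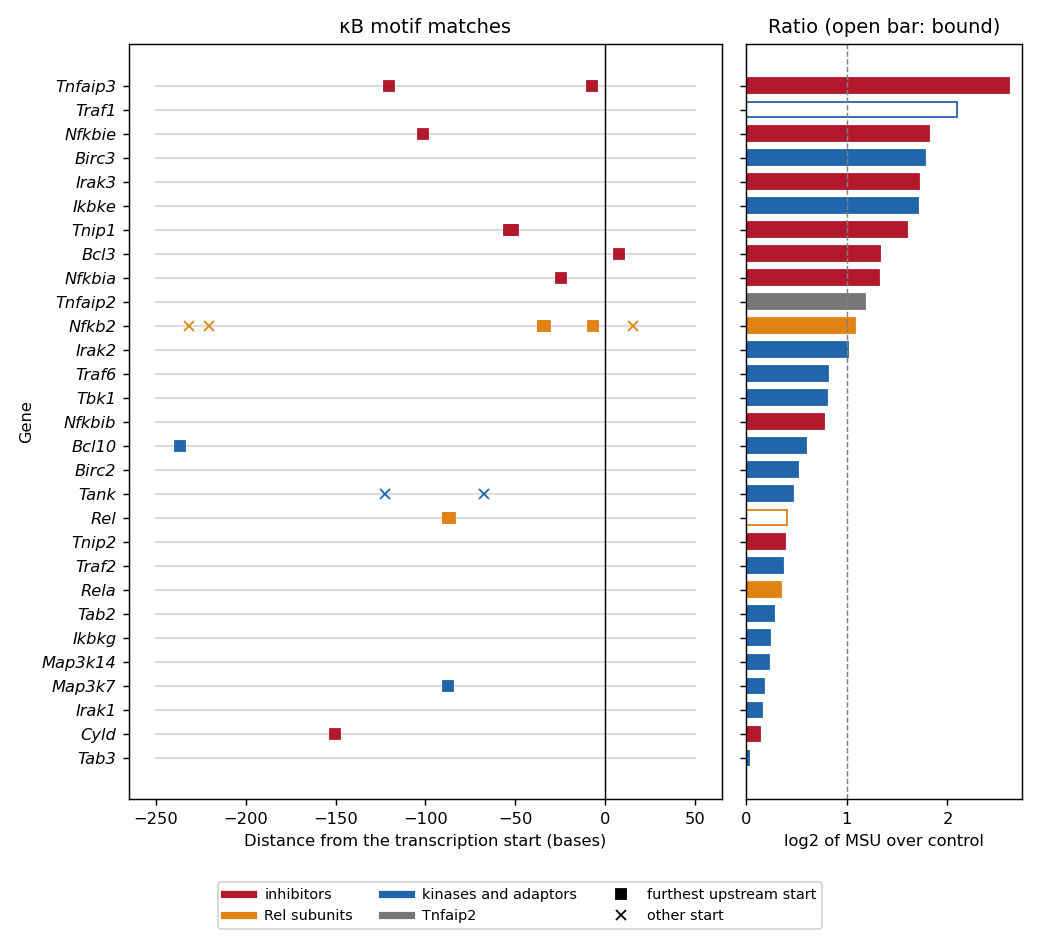
Left, position of κB motif matches in the 250 bases before and 50 after the transcription start (x axis, bases) for the 29 measured genes with a promoter (squares, start furthest upstream; crosses, other starts). Right, log2 ratio of MSU over control of the same genes (x axis; open bars are bounds; dashed line, 2-fold), which shows matches both at the top of the order (Tnfaip3, 2.61) and near its foot (Cyld, 0.14).

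Each of the 5 genes of the IκB family was higher in the MSU pool on its representative probe set, and 4 of them passed 2-fold. Nfkbia encodes IκBα, the inhibitor that is resynthesized after each round of activation, and its signal was 4933 in control and 12296 in MSU membranes, a fold of 2.49. Its representative probe set gave the lowest ratio of the 5, and the others ranged from 3.06- to 3.44-fold. Nfkbie, encoding IκBε, stood at 295 and 1035, a fold of 3.51. In contrast, Nfkbib, encoding IκBβ, stood at 217 and 370, a fold of 1.71, while its other probe set, below the floor on both arrays, was at 50.5 and 15.7. Among the nuclear members, which act on chromatin with the dimers and can activate as well as repress, Nfkbiz (IκBζ) had signals of 637 and 2272 (3.57-fold higher) and Bcl3 had 267 and 670 (2.51-fold higher). The 3 probe sets of Nfkbiz gave log2 ratios of 1.63 to 2.09.

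The enzymes and partners that edit ubiquitin chains divided into 2 groups. Tnfaip3 encodes A20, which takes down signalling complexes at the receptors, and had signals of 331 and 2023, or 6.12-fold higher. Its other probe set, at 79.2 and 636, was 8.04-fold higher. Tnip1, which encodes the A20-binding protein ABIN-1, stood at 579 and 1751, a fold of 3.02. The remaining genes of this kind were under 2-fold. Tnip2 (ABIN-2) had signals of 131 and 171, a fold of 1.31. The deubiquitinases Cyld and Otud7b (Cezanne) were at 181 and 200 and at 220 and 253, and their probe sets with a fold lay on both sides of a log2 ratio of 0, from -0.30 to 0.34 for Cyld and from -0.23 to 0.29 for Otud7b. The sign of neither can therefore be given. Irak3, which encodes IRAK-M, a brake on Toll-like and interleukin-1 receptor signals, was 3.29-fold higher at 249 and 820, with 3.17-fold on its other probe set.

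Of the 4 subunits measured, 1 passed 2-fold. Nfkb2, the precursor of p52, had signals of 211 and 448 (2.12-fold higher), although its other probe set, at 109 and 129, gave only 1.19-fold, so whether it passed 2-fold depended on the probe set. Relb, the usual partner of p52 in the non-canonical pathway, had signals of 147 and 290 (1.98-fold higher), just under the 2-fold limit that Irak2, at 2.02-fold, just passed. Rela (p65), the transactivating subunit of the canonical dimer, stood at 869 and 1104, a fold of 1.27. Rel (c-Rel) stood at 32.6, below the floor, in control and at 86.0 in MSU membranes, hence at least 1.33-fold higher, with a plain ratio of signals of 2.63.

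The kinases and adaptors ranged from 1.02-fold for Tab3 to 6.19-fold for Malt1. The core IKK complex was represented by Ikbkb (IKKβ), with signals of 508 and 560 (1.10-fold), and by its regulatory subunit Ikbkg (NEMO), with 166 and 197 (1.18-fold). For Ikbkb, the other 2 probe sets with a fold gave 1.33- and 1.70-fold. For Ikbkg the probe sets disagreed in sign, with log2 ratios from -0.31 to 0.24 over 4 probe sets and a further one at least 1.66-fold lower. The 2 IKK-related kinases, which act mainly in the interferon pathway, differed from each other. Ikbke (IKKε) stood at 123 and 403 (3.26-fold higher), while Tbk1 was at 629 and 1096 (1.74-fold higher).

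Upstream of IKK, the TAK1 complex showed small ratios. Map3k7, the gene of TAK1 itself, had signals of 229 and 260 (1.14-fold) and a second probe set at 156 and 123, a log2 ratio of -0.34. Its ubiquitin-binding partners Tab2 and Tab3 were at 1102 and 1338 (1.21-fold) and at 72.9 and 74.6 (1.02-fold). The sign for Tab3 turned under each of the 3 other scalings. Map3k14 (NIK), the kinase of the non-canonical pathway, is controlled largely by protein breakdown and had signals of 148 and 174 (1.18-fold). The exception was Map3k8 (Tpl2), a kinase that p105 holds inactive and that leads to ERK, with signals of 100 and 320 and a fold of 3.19. Of the interleukin-1 receptor-associated kinases, Irak2 had signals of 162 and 328 (2.02-fold higher), whereas Irak1 was at 191 and 214 on its representative probe set (log2 ratio 0.16) and at 189 and 108 on another (-0.81).

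The adaptors and ubiquitin ligases also divided. Traf1 was at 63.2 in control, just below the floor, and at 277 in MSU membranes, hence at least 4.28-fold higher, and its other probe set gave at least 1.52-fold. The log2 value of the first of these bounds (2.10) was 1.26 with a stricter floor, at the 15000th highest signal, and 1.46 with the floors added as a pseudocount. Birc3 (cIAP2) stood at 531 and 1816 (3.42-fold higher), while its paralog Birc2 (cIAP1) was at 372 and 531 (1.43-fold higher). Traf2, which brings both cIAPs to TNF receptors, was at 129 and 167 (1.29-fold). Traf6, the ligase of the Toll-like and interleukin-1 receptor branch, was at 68.5 and 121 (1.76-fold), with its control signal close to the floor, and had only a bound of 0.07 on the log2 scale with the stricter floor. The signals of Tank, a scaffold of the IKK-related kinases, were 330 and 459 (1.39-fold).

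Malt1, the paracaspase that works with Bcl10 and CARD proteins and that cleaves A20 and other inhibitors, had a fold close to that of Tnfaip3. Its signals were 115 for control and 711 for MSU membranes, or 6.19-fold higher. The other 2 probe sets, at 98.5 and 466 and at 87.7 and 472, were 4.73- and 5.39-fold higher, so the difference stood on all 3. By the log2 ratio of their representative probe sets Malt1 (2.63) ranked 25 and Tnfaip3 (2.61) 26 among the 10045 genes with a fold. The order of the pair was the opposite over the median of their probe sets (2.43 and 2.81) and with the floors added as a pseudocount (2.13 and 2.41). Bcl10, its partner, was at 844 and 1272 (1.51-fold), and its 4 probe sets ranged from 0.32 to 0.67 on the log2 scale. Tnfaip2, which was first known as a gene induced by TNF, stood at 1697 and 3846 (2.27-fold higher).

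**Figure D4:**
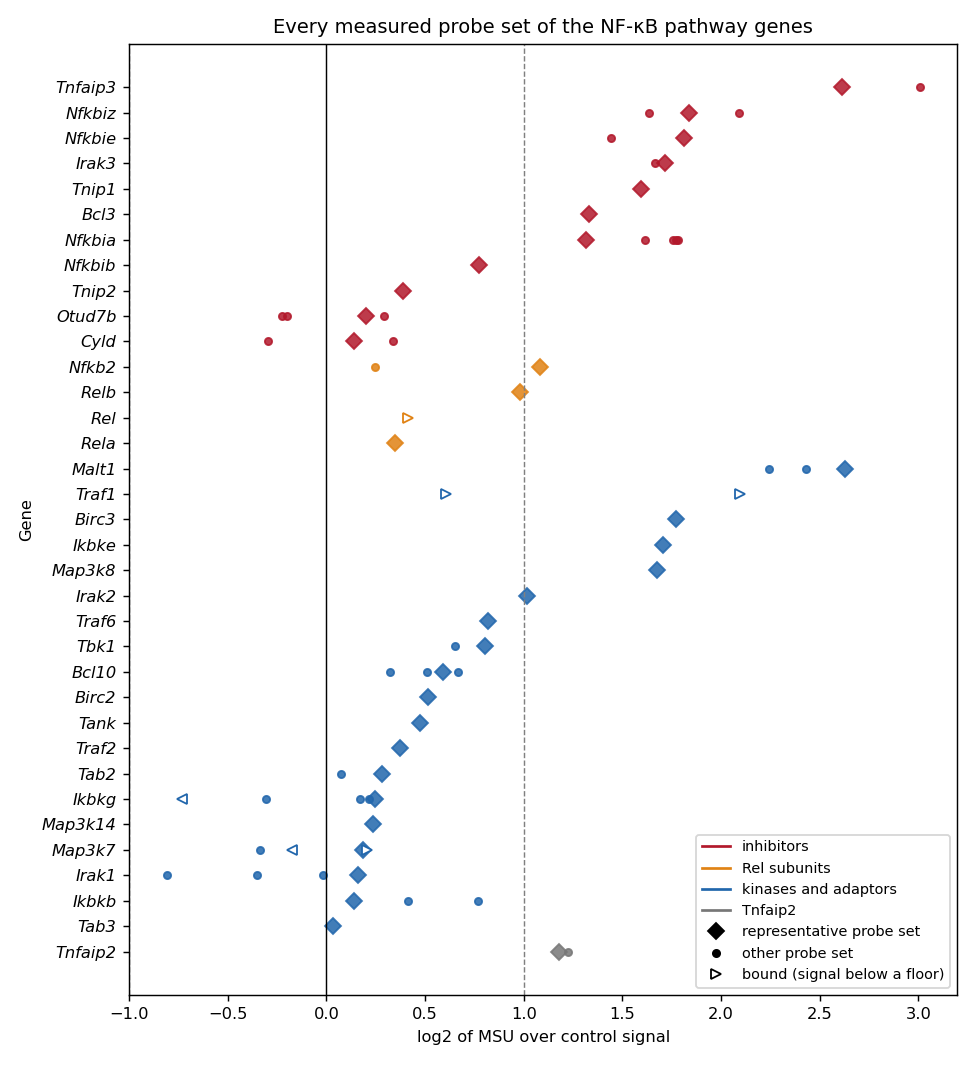
Log2 ratio of MSU over control (x axis) for every measured probe set of each gene (y axis), 1 array per pool; diamonds are representative probe sets, circles other probe sets, open triangles bounds, and dashed lines 2-fold. The probe sets of Malt1, Nfkbia, Nfkbiz and Tnfaip3 all lie above 2-fold, those of Cyld, Otud7b, Irak1, Ikbkg and Map3k7 lie on both sides of 0, and only Nfkb2 has folds on both sides of the 2-fold line.

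In the 17 genes for which 2 or more probe sets gave a fold, the SD between those log2 ratios was 0.26 at the median and reached 0.59, while the 4002 genes of the array had a median of 0.22. At this spread Irak2, Relb and Nfkb2 cannot be placed on either side of 2-fold with any certainty. Nor can Tnfaip2 (log2 ratio 1.18), Traf6 (0.82), Tbk1 (0.80) and Nfkbib (0.77). The spread holds no variation between mice, pools or arrays, so calls further from 2-fold are not thereby secure. Nfkbia and Bcl3, for instance, fell below 2-fold under spike-in scaling. Of the 86 probe sets, 65 had a fold, 6 a bound, and 15 lay below the floor on both arrays.

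The pathway could also be divided by whether a gene is known from textbooks as a direct target of NF-κB, a grouping made with these results already known. The counts below therefore cannot show that being a target goes with a higher ratio. Of 15 measured target genes 13 were at least 2-fold higher, and of the 20 other genes 2 were, Malt1 and Irak3. The share over all measured genes was 3.7%. The medians were 1.60 over the 13 targets with a fold and 0.36 over the others. Within the kinases and adaptors, all 5 measured targets (Traf1, Birc3, Ikbke, Map3k8 and Irak2) passed 2-fold, compared with 1 of 14 others. Within the inhibitors it was 6 of 6 compared with 1 of 5. Among targets with a fold, the medians were 1.70 for inhibitors, 1.69 for kinases and adaptors and 1.03 for subunits. Among the other genes they were 0.39, 0.33 and 0.35 in the same order. The 2 target genes that did not pass were the subunits Relb and Rel.

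Genes of the pathway outside the list were taken from 3 further lists. For comparison, 3.7% of all measured genes were at least 2-fold higher and 4.29% lower by this size. Of 21 measured receptors and proximal adaptors, 4 passed 2-fold upward and none downward, with a median log2 ratio of 0.08. The highest were the interleukin-1 receptor chains Il1rap (129 and 480, 3.73-fold) and Il1r1 (459 and 1238, 2.70-fold) and the Toll-like receptor Tlr2 (418 and 1149, 2.75-fold). The lowest were Cd40, a TNF receptor family member of B cells and macrophages (140 and 87.2, 1.60-fold lower), and Ticam1, the adaptor TRIF (215 and 149, 1.44-fold lower). Of 14 other inhibitors, 2 passed 2-fold upward and 1 (Pdlim2) downward, with a median of 0.01. The RNase gene Zc3h12a (Regnase-1) was at 53.6 and 388, or at least 6.01-fold higher, Nfkbid (IκBNS) at 68.8 and 199, or 2.89-fold, and Nfkbil1 at 97.8 and 133, or 1.36-fold. Pdlim2, a ligase that targets p65, was 2.28-fold lower at 474 and 208, and Nkiras1 (κB-Ras) 1.80-fold lower at 273 and 151.

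Known target genes that are not part of the pathway itself had 22 measured members, of which 16 were at least 2-fold higher and 1 (Cxcl10) lower by this size. Among all measured genes the shares were 3.7% and 4.29%. The median log2 ratio of these target genes was 1.61. The list was set with earlier results of these data known. It holds Il6 and Csf3, which the study named among the most upregulated mRNAs on these same arrays. Csf3 was at least 22.9-fold higher, Il6 22.5-fold and Cxcl2 15.3-fold. At the other end, the chemokine gene Cxcl10 was 2.59-fold lower at 398 and 154, and the protease gene Plau was 1.06-fold higher at 358 and 379.

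**Figure D5:**
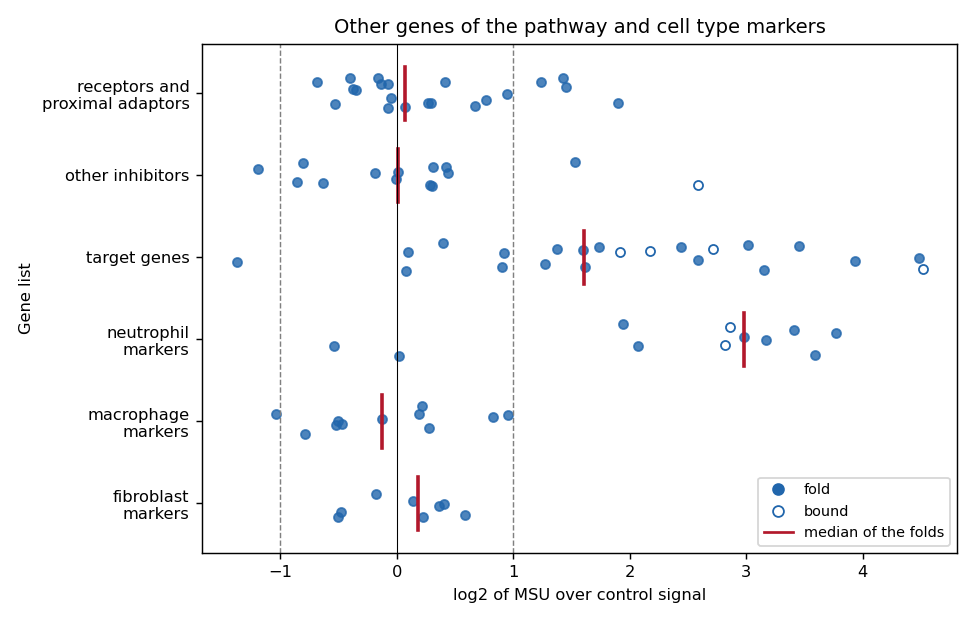
Log2 ratio of MSU over control (x axis) for measured genes of 3 further lists of the pathway and of 3 cell type marker lists (y axis), with 1 array for each pool; folds are drawn filled and bounds open, red bars mark medians of the folds and dashed lines 2-fold. Target genes (median 1.61) and neutrophil markers (median 2.98) lie to the right, whereas the medians of receptors (0.08) and other inhibitors (0.01) lie near 0.

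Signals of some cell type markers also differed between the 2 pools. Beside the counts below, 3.7% of all measured genes were at least 2-fold higher and 4.29% lower. Of 11 measured neutrophil markers 9 were at least 2-fold higher, and the summed signal of all 13 with a probe set was 3036 for control and 24107 for MSU membranes. The brightest were S100a9 (724 and 8737) and S100a8 (817 and 8677), which made up most of the MSU sum. The measured markers under 2-fold were Ltf, 1.45-fold lower at 234 and 161, and Mpo, 1.02-fold higher at 74.2 and 75.4. Camp and Elane were below the floor in both pools. Of the 11 macrophage markers none passed 2-fold upward and 1 (Folr2) did so downward, with summed signals of 30435 and 29653 and with Csf1r (5349 and 6120) and C1qa (6685 and 4725) the brightest. The 8 fibroblast markers, with Col3a1 (11909 and 15371) and Col1a2 (11593 and 12750) the brightest, did not reach 2-fold in either direction, nor did the folds and the bound of the 6 endothelial ones, led by Pecam1 (249 and 262) and Tek (238 and 169). Of 7 lymphocyte markers only Cd8a was measured, at 98.2 and 97.8, and the next brightest, Ms4a1, lay below the floor. Of 4 adipocyte markers 3 were at least 2-fold lower, among them the brightest, Fabp4 (5879 and 1482) and Adipoq (1610 and 219). Of 5 muscle markers 2 were lower by that size, though not the brightest, Acta1 (7311 and 8398) and Ckm (6709 and 4083). In whole membranes more cells of a type and more RNA per cell cannot be told apart, and the part of these cells in the ratios of the NF-κB genes was not tested.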

How the data were processed

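RNA of air pouch membranes was measured in 2 pools of 3 mice, control and MSU, with 1 Affymetrix Mo430_2 array each. The authors deposited 1 linear intensity for each probe set and array, made by MAS5 according to the submitters' processing notes (version not given in the sources used here). Both arrays had the same mean once 2% of the probe sets was trimmed at either end, which shows a scaling to a common target. The intensities were used as deposited, without background correction or transformation before the ratios were taken.

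Probe sets with 1 gene in the platform annotation (34945 of 45101, 64 control probe sets left out) were given current symbols through gene identifiers (RefSeq table, GRCm38.p6). The brightest probe set by mean log2 signal represented a gene. The detection floor of an array was set at a signal reached by just the number of probe sets that the study counted as detected there, because detection calls were not used here; it takes no account of probe-level background. A signal above its own floor but not above that of the other array gave no bound (325 genes, none described here). Calls are by size (2-fold) and no p-value was computed. Precision is limited by there being 1 array per pool.

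The genes, classes and lists were chosen with earlier results of these data known. All 35 genes of the NF-κB list with a probe set are named with their values. In the other pathway lists the 3 highest and 2 lowest are named. In the marker lists the 2 brightest are named, with some that stayed under 2-fold, went the other way or lay below the floor. Alternatives were 3 other scalings, other floors, a pseudocount, other ways to represent a gene, a size of 3-fold, and bounds in medians. Grouping by known targets was a separate comparison. The ratio step was tested on simulated data, with changes past 2-fold placed only in genes whose control signals lay well above the floor. Changes close to 2-fold, or in genes with control signals near the floor, were not tried. Python 3.11.15, pandas 2.3.3, numpy 2.4.6 and matplotlib 3.10.9 were used.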

Additional observations from a re-analysis of the deposited data

How the results depend on the processing

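The count of genes at least 2-fold higher (15) was 14 with scaling on the array median (without Irak2) and over the median of a gene's probe sets (without Nfkb2), 16 with quantile normalization (with Relb) and with no floor (with Rel), 13 with the floors added as a pseudocount, 15 with a floor at the 15000th highest signal and without probe sets ending in _x_at or _s_at, and 10 at a size of 3-fold. The share of all measured genes that were higher, 3.7% in the report, was in turn 3.3%, 3.57%, 3.61%, 8.92%, 1.83%, 3.66%, 3.74% and 1.47%. No gene of the list was lower by these sizes under any of them or under spike-in scaling. Scaling on the hybridization spike-ins lowered the class medians to 0.037 for the kinases and adaptors, 0.53 for the subunits and 0.87 for the inhibitors and left 10 genes at 2-fold (1.77% of all genes), without Nfkbia, Nfkb2, Bcl3, Tnfaip2 and Irak2. Over all genes it gave 200 higher and 1789 lower by 2-fold, in place of 413 and 478. The difference of class medians (0.71) ranged from 0.45, with the pseudocount, to 0.82, without the _x_at and _s_at probe sets. Known targets and the other genes differed by 1.24 in their medians. That is another comparison, with Tnfaip2 included and with labels set when the results were known. Over the median of their probe sets, Map3k7, Otud7b and Irak1 changed sign. The pseudocount moved the median of all genes by 0.14. No paired analysis was possible because each group had 1 array, and for the same reason no variation between mice or arrays can be given.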

Other observations

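Traf6 had 5 probe sets, of which 4 lay below the floor on both arrays and therefore have no fold. Their plain ratios of MSU over control signal were 1.82, 2.52, 2.85 and 5.22, all above 1, with the highest at signals of 5.30 and 27.7. The single probe set above both floors gave 1.76-fold. A further probe set of Cyld below both floors stood at 31.7 and 3.95, with a plain ratio of 0.124, opposite in sign to the representative one. The same was true of Nfkbib, whose second probe set had a plain ratio of 0.312, and of 1 of the probe sets of Map3k7, at 0.960. These values lie where signals of this kind are least certain, and they are given as measured.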
